A study of Homo sapiens with 8 samples.

Results

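The E2F family and its dimerization partners were examined in DLD1 cells, an established human colorectal cancer line. The 10 genes, of 20841 named on the array, were chosen by name: the activators E2F1, E2F2 and E2F3, the repressors E2F4, E2F5, E2F6, E2F7 and E2F8, and the DP partners TFDP1 and TFDP2. They were measured by 15 of the 50599 non-control probes of a 1-colour Agilent array. RNA levels were obtained on 8 arrays in 4 groups of 2. In siCONT mock, cells received a control siRNA and then ethanol. In siUHRF1 mock, UHRF1 was depleted with 1 of 2 siRNAs (siUHRF1-1 or siUHRF1-2, 1 array each) before ethanol. In siCONT TSA and siUHRF1 TSA, the same transfections were followed by trichostatin A (TSA) at 300 nM, which inhibits histone deacetylases. The agent was added 48 h after transfection and stayed on for 24 h. UHRF1 brings the maintenance methyltransferase DNMT1 to replicated DNA, and its depletion here was transient and partial. The study asked how UHRF1 depletion and histone deacetylase inhibition, alone and together, alter gene expression.

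E2F proteins bind the promoters of genes needed for DNA synthesis, most of them as dimers with a DP protein. E2F1 to E2F3 activate these genes once cyclin-dependent kinases release them from RB1. E2F4 and E2F5 carry the related pocket proteins RBL1 and RBL2 to the same promoters in resting cells, E2F6 represses without a pocket protein and keeps germline genes silent, and E2F7 and E2F8 bind DNA without a DP partner and switch the program off late in S phase. Several E2F genes carry E2F sites in their own promoters. In colon crypts this program runs in the dividing cells.

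The letters of the classical E2F site were therefore looked for in the promoters of the 10 genes. RefSeq promoter windows (GRCh38.p14, 250 bases before to 50 bases after the gene start) were matched for 8 genes, in 11 windows, while E2F5 and E2F8 had no entry. The spellings TTTCGCGC, TTTGGCGC, TTTCCCGC and TTTGCCGC were searched on both strands, with overlapping matches counted separately. Any of the 4 spellings lay in 3.31% of 35116 windows of this length. TTTCGCGC alone lay in 0.515% of them, TTTGGCGC in 0.652%, TTTCCCGC in 1.63% and TTTGCCGC in 0.607%. The 5 matches among the members lay in 4 genes, namely the 3 activators and TFDP1, and are printed 5′ to 3′ on the strand of the gene with the matching letters in capitals:
E2F1 (chr20:33686387-33686416, minus strand, TTTGGCGC, 20 bases before the start): ggcaaaaaggaTTTGGCGCgtaaaagtggc
E2F1 (chr20:33686400-33686429, minus strand, TTTGCCGC on the opposite strand, 33 bases before the start): gtggctctttcGCGGCAAAaaggatttggc
E2F2 (chr1:23531257-23531286, minus strand, TTTGGCGC, 42 bases before the start): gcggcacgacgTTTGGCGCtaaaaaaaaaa
E2F3 (chr6:20401815-20401844, plus strand, TTTCCCGC on the opposite strand, 53 bases before the start): ttgaaaagccgGCGGGAAAtccgagtttcg
TFDP1 (chr13:113584622-113584651, plus strand, TTTCGCGC on the opposite strand, 120 bases before the start): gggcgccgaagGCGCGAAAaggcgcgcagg

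The first and second E2F1 stretches overlap. These matches describe letters only, and the windows of E2F4, E2F6, E2F7 and TFDP2 did not hold them. Of 41 windows matched for the list of 34 G1/S target genes, 17 held at least 1 of the 4 spellings.

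Levels are log2 values of the processed intensity over the 75th percentile of its array, where 0 is the intensity below which 75% of probes lie. Levels of different genes were not compared. Within siCONT, the arrays of a pair differed by 1.31 (mock) and 1.08 (TSA) times the noise between repeated spots, against 13.1 and 10.4 times for the arrays of the 2 siRNAs. The siCONT means are therefore given as those of 1 sample, with no SD. The p-values come from a fit that took all 8 arrays as separate samples and measure the spread between these arrays only, and calls are also given for a fit with each siCONT pair averaged to 1 sample. In this second fit the spread comes only from the differences between the 2 siRNAs. For TSA in siCONT it sets 1 sample against 1, so that it measures no spread within siCONT. All arrays lay on 1 slide with mock in row 1 and TSA in row 2, so that TSA and position on the slide cannot be told apart. The targeted gene followed its labels: with mock, UHRF1 stood at 32.2% and 24.5% of siCONT with the first and second siRNA, and with TSA at 16.5% and 11.3%. The dimmer UHRF1 probe gave 32.9% and 28.6% with mock and 27.6% and 14.1% with TSA, where it was not above background in depleted cells. By the brighter probe, siCONT itself was lower with TSA, at 1.03 against 1.99 with mock. All 9 colon epithelial markers were well above background on every array. Per array, 43.3% to 48.0% of all probes exceeded background clearly. Of 9 markers of fibroblasts, endothelium and leukocytes, 5 (COL1A2, COL3A1, PECAM1, PTPRC and CD3E) were well above background on no array. The summed signal of these 9 was 58.9% to 61.4% of the 75th percentile in siCONT mock and 80.9% to 115% in siUHRF1 mock. It was 183% to 189% in siCONT TSA and 278% to 341% in siUHRF1 TSA, in these TSA groups mostly through COL1A1, VWF and CD68. COL1A1 was well above background on no mock array. Their part in the results was not tested. In whole cultures, fewer cells in a phase of the cycle and less RNA per cell cannot be told apart.

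All 10 genes were expressed, as the brightest probe of each was well above background on all 8 arrays. The same held for 14 of the 15 probes, and the second E2F7 probe was above background on 1 of 2 arrays in each group. Calls required a difference of at least 2-fold and a limma p under 0.05 after Benjamini-Hochberg adjustment over all probes tested. E2F1, E2F2, E2F4, E2F8 and TFDP1 were highest with UHRF1 depletion alone, E2F3 and E2F6 with TSA alone, and E2F5, E2F7 and TFDP2 in siCONT mock. All but E2F2 and E2F6 were lowest when both treatments were applied. Groups without overlap are named below, but over all probes this was common between 2 groups. Both siUHRF1 mock arrays lay above both siCONT mock arrays for 25.3% of probes and below them for 39.2%. For siCONT TSA against siCONT mock these shares were 37.8% and 49.8%. The share of probes with all 4 groups apart was not computed.

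**Figure D1:**
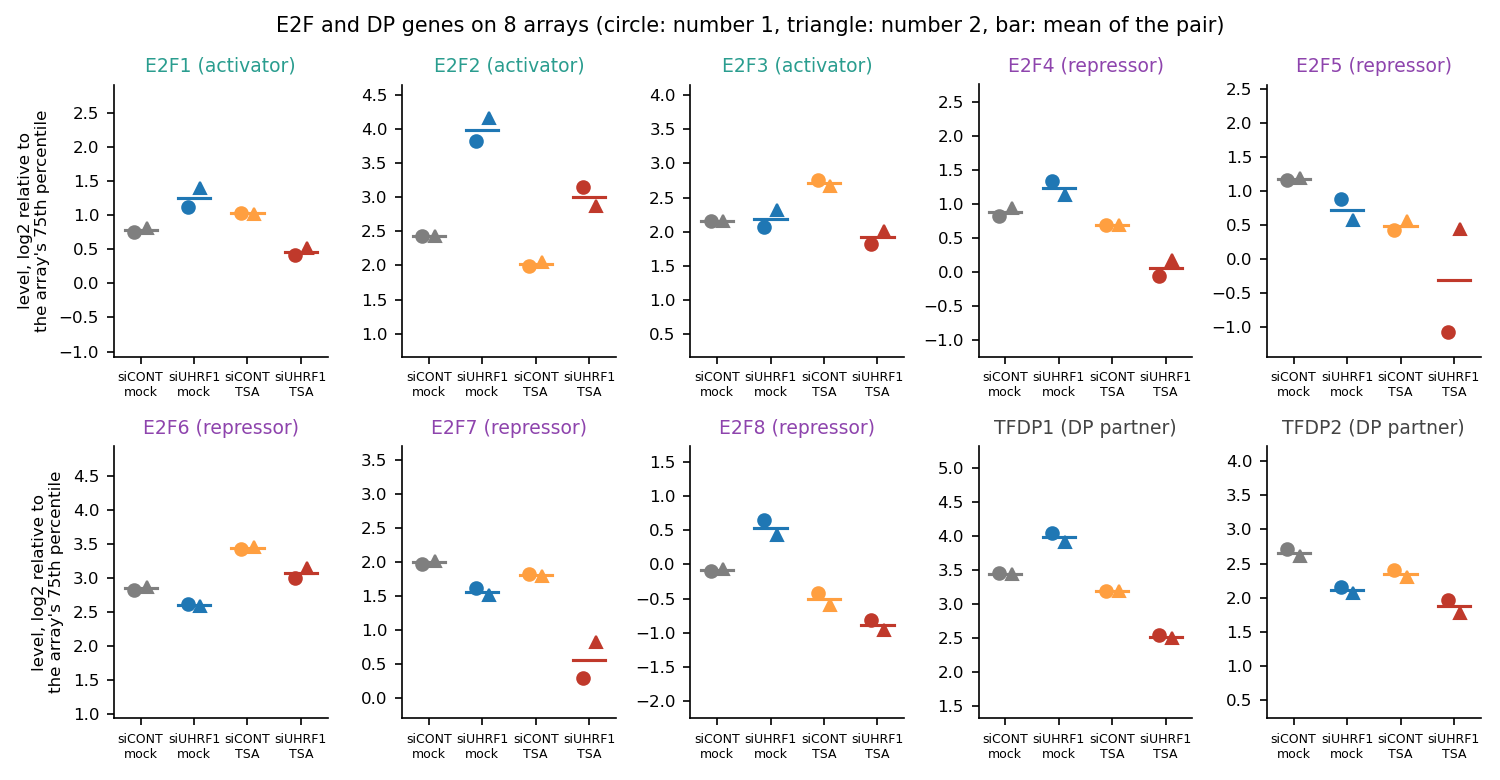
Level of the 10 genes on each array (log2 over the array's 75th percentile, each panel spanning 4 log2 units), with circles for the first and triangles for the second array of a group and bars for the mean of the pair. E2F2 was highest on the siUHRF1 mock arrays (3.82 and 4.17), E2F6 on the siCONT TSA arrays (3.43 and 3.45), and TFDP1 was lowest on the siUHRF1 TSA arrays (2.54 and 2.50).

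Among the activators, E2F2, which drives S-phase entry with E2F1 and E2F3, had the widest range. Its level was 2.44 and 2.43 in siCONT mock, 3.82 and 4.17 in siUHRF1 mock, 1.99 and 2.06 in siCONT TSA, and 3.15 and 2.88 in siUHRF1 TSA. Both depleted groups lay above both siCONT groups without overlap, and no neighbours in this order overlapped. With mock, E2F2 rose 2.95-fold upon UHRF1 depletion (log2 difference 1.56, SE 0.16, adjusted p = 0.0102), from 2.43 to 4.0 ± 0.25 (SD, n = 2 siRNAs). With TSA, the difference was 0.99 (adjusted p = 0.0148), 1.99-fold and just under the fold minimum, and TSA in depleted cells left E2F2 at 50.6% of its mock level (−0.98, adjusted p = 0.00539), also just under it. The level in siUHRF1 TSA was above that in siCONT mock by 0.58 (adjusted p = 0.029, 1.49-fold). The probe lies on chromosome 1, 23832933 to 23832992 (hg19, as for all probes), 5120 bases into the E2F2 transcript.

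E2F1, the activator most closely tied to RB1, had levels of 0.75 and 0.82 in siCONT mock, 1.12 and 1.40 in siUHRF1 mock, 1.04 and 1.03 in siCONT TSA, and 0.42 and 0.52 in siUHRF1 TSA. It was highest with UHRF1 depletion alone and lowest with both, and no group overlapped another. Its probe (chromosome 20, 32263989 to 32264048) was spotted 10 times, and the SD of the spots on an array was 0.026 to 0.082, with 1 to 3 outlier spots left out on 3 arrays. The difference upon depletion was 0.47 with mock (SE 0.13, adjusted p = 0.0799) and −0.56 with TSA (adjusted p = 0.0379, 1.48-fold). TSA left it at 57.8% of its mock level in depleted cells (−0.79, adjusted p = 0.00587, under 2-fold).

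E2F3, which also activates S-phase genes, was at 2.16 and 2.16 in siCONT mock, 2.06 and 2.31 in siUHRF1 mock, 2.76 and 2.67 in siCONT TSA, and 1.82 and 2.01 in siUHRF1 TSA. The siCONT TSA arrays were above all others, and the siUHRF1 mock arrays lay on either side of the siCONT mock pair. The signal was 1.47-fold higher with TSA in siCONT (0.56, SE 0.14, adjusted p = 0.0228), and under TSA the depleted cells were at 57.4% of siCONT (−0.80, adjusted p = 0.0166), both under 2-fold. The second E2F3 probe, dimmer and nearer the start of the transcript, differed by 0.43 and −0.51 in these comparisons (adjusted p = 0.0982 and 0.0987).

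Among the repressors, E2F7, a DP-independent repressor of the S-phase program, was at 1.98 and 2.03 in siCONT mock, 1.62 and 1.52 in siUHRF1 mock, 1.83 and 1.80 in siCONT TSA, and 0.30 and 0.83 in siUHRF1 TSA. The siUHRF1 TSA arrays were below all others, the siRNAs differing by 0.53, and the other 3 groups lay within 0.43 of each other. E2F7 fell to 36.9% of siCONT mock with both treatments (−1.44, SE 0.18, adjusted p = 0.00168) and to 42.1% of siCONT TSA (−1.25, adjusted p = 0.0112). It stood at 49.9% with TSA in depleted cells (−1.0, adjusted p = 0.00764), at the edge of the fold minimum. Neither depletion with mock (−0.43, adjusted p = 0.173) nor TSA in siCONT (−0.19, adjusted p = 0.439) passed the test. The bright probe lies on chromosome 12, 77415520 to 77415579. The second probe, near background, was lower by 0.46 with both treatments and was not tested.

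E2F8, which acts beside E2F7, was at −0.10 and −0.07 in siCONT mock, 0.65 and 0.43 in siUHRF1 mock, −0.42 and −0.60 in siCONT TSA, and −0.81 and −0.96 in siUHRF1 TSA. It was highest with UHRF1 depletion alone and lowest with both, the 4 groups not overlapping. In depleted cells, TSA lowered E2F8 to 37.2% of its level with mock (−1.43, SE 0.14, adjusted p = 0.000862). The difference upon depletion was 0.63 with mock (adjusted p = 0.0464, 1.55-fold), and with both treatments E2F8 stood at 57.5% of siCONT mock (−0.80, adjusted p = 0.005). Its probe lies on chromosome 11, 19245675 to 19245734.

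E2F4, the main E2F of resting cells, was at 0.82 and 0.94 in siCONT mock, 1.34 and 1.12 in siUHRF1 mock, 0.68 and 0.69 in siCONT TSA, and −0.06 and 0.18 in siUHRF1 TSA. The order of the groups was that of E2F8, again without overlap. TSA in depleted cells lowered E2F4 to 44.4% of its mock level (−1.17, SE 0.14, adjusted p = 0.00186), and with both treatments it was at 56.6% of siCONT mock (−0.82, adjusted p = 0.00512, under 2-fold). Its probe spans an intron, from 67231510 to 67231789 on chromosome 16.

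E2F5, the other pocket-protein-bound repressor, was at 1.16 and 1.19 in siCONT mock, 0.88 and 0.57 in siUHRF1 mock, 0.42 and 0.55 in siCONT TSA, and −1.07 and 0.44 in siUHRF1 TSA. The second siRNA with TSA lay among the siCONT TSA arrays and the first far below them, a difference of 1.51. Against siCONT mock, E2F5 fell to 35.6% with both treatments (−1.49, SE 0.45, adjusted p = 0.037). Without the array of the first siRNA the difference was −0.73, under 2-fold. Its other differences had adjusted p-values of 0.118 to 0.744.

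E2F6, which represses germline genes, was the repressor with its highest level under TSA alone. Its level was 2.82 and 2.87 in siCONT mock, 2.62 and 2.59 in siUHRF1 mock, 3.43 and 3.45 in siCONT TSA, and 3.0 and 3.14 in siUHRF1 TSA. Both TSA groups were above both mock groups, and at either agent the depleted cells were the lower. E2F6 was 1.51-fold higher with TSA in siCONT (0.60, SE 0.11, adjusted p = 0.00893) and 1.38-fold higher with TSA in depleted cells (0.47, adjusted p = 0.0188), both under 2-fold. The other E2F6 probes gave 0.87 and 0.34 for TSA in siCONT (adjusted p = 0.0219 and 0.135).

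Of the DP partners, TFDP1 encodes DP1, the usual partner of the E2F proteins. Its level was 3.45 and 3.45 in siCONT mock, 4.05 and 3.91 in siUHRF1 mock, 3.19 and 3.20 in siCONT TSA, and 2.54 and 2.50 in siUHRF1 TSA. The groups did not overlap and took the same order as those of E2F4 and E2F8. TSA in depleted cells lowered TFDP1 to 36.3% (−1.46, SE 0.11, adjusted p = 0.000406). The second probe, across an intron at 114290388 to 114290852 on chromosome 13, gave −1.34 (adjusted p = 0.00182). With both treatments TFDP1 was at 52.4% of siCONT mock (−0.93, adjusted p = 0.00132), just under 2-fold.

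TFDP2, which encodes DP2, was at 2.71 and 2.60 in siCONT mock, 2.15 and 2.06 in siUHRF1 mock, 2.40 and 2.30 in siCONT TSA, and 1.97 and 1.78 in siUHRF1 TSA. It was highest without either treatment, and its groups did not overlap. Depletion with mock gave −0.56 (SE 0.13, adjusted p = 0.0495) and both treatments gave −0.79 (adjusted p = 0.00371), 57.9% of siCONT mock. TFDP2 passed the fold minimum in no comparison. With depletion alone TFDP1 differed by 0.53 (adjusted p = 0.0426) and TFDP2 by −0.56, both under 2-fold, and the contrast between them was not tested.

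Over the 8 arrays TFDP1 ran closest to E2F4 (Pearson r = 0.98), then to E2F8 (r = 0.97) and E2F1 (r = 0.84), while E2F6 ran opposite to E2F2 (r = −0.81). These values describe 8 arrays in 4 groups, where the arrays of a group share their treatment.

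Set out by comparison, UHRF1 depletion with mock changed 1 of the 10 genes, E2F2, upward, where 4.12% of the 22380 probes tested were called (3.13% higher). The E2F2 call was lost without the first siCONT mock array (1.57, adjusted p = 0.0674) or the second (1.56, adjusted p = 0.0617). With the siCONT arrays averaged to 1 sample, 0 members were called (E2F2 at adjusted p = 0.244, and 1 member at an unadjusted p under 0.05 with 2-fold), where 0.0223% of probes were. Both siUHRF1 mock arrays lay above both siCONT mock arrays for 5 genes and below them for 4, as they did for 25.3% and 39.2% of probes. The median difference was 0.19 over the 10 genes and −0.10 over all probes tested. TSA in siCONT changed 0 of 10 genes by limma with either treatment of the siCONT arrays and also at an unadjusted p under 0.05 with 2-fold, where 18.6% of 23229 probes were called (10.4% higher). Averaging the siCONT arrays left 1.56% called (1.26% higher, 0.297% lower). The siCONT TSA arrays lay above both siCONT mock arrays for 3 genes and below them for 7, against 37.8% and 49.8% of probes. The median difference was −0.22 against −0.11 over all probes.

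UHRF1 depletion plus TSA against siCONT mock changed 2 of 10 genes, E2F5 and E2F7, both downward, where 25.6% of 23723 probes were called (11% lower). With the siCONT arrays averaged, E2F7 kept its call (adjusted p = 0.0437) and E2F5 did not (adjusted p = 0.178), where 15.4% of probes were called (9.74% higher, 5.68% lower). The E2F5 call was lost on leaving out any array but the second siUHRF1 TSA array, with differences of −1.51 to −0.73. The median difference over the 10 genes was −0.79 against −0.14 over all probes, and 8 genes were lower on both siUHRF1 TSA arrays than on both siCONT mock arrays, as were 46.5% of probes, and 2 were higher, as were 33.5%.

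Under TSA, UHRF1 depletion changed 1 of 10 genes, E2F7, downward, where 8.26% of 23833 probes were called (5.39% higher, 2.87% lower). The call was lost with the siCONT arrays averaged (adjusted p = 0.211, with 1 member at an unadjusted p under 0.05 with 2-fold), where 0.692% of probes were called (0.676% higher, 0.0168% lower). It was also lost without either siCONT TSA array (adjusted p = 0.0811 and 0.0783), and without the first siUHRF1 TSA array (−0.98). Leaving out the second siUHRF1 TSA array added E2F2 (1.13) and E2F5 (−1.56). The depleted arrays lay above for 1 gene and below for 8, against 35% and 34.5% of probes. The median difference was −0.60 against 0.00081 over all probes.

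Of the 10 genes, 4 fell with TSA in UHRF1-depleted cells and none rose: E2F4, E2F7, E2F8 and TFDP1. Of 23901 probes, 20.7% were called (11.7% higher, 9% lower). With the siCONT arrays averaged, 17.6% were called (7.56% lower), and E2F4 (adjusted p = 0.0272), E2F8 (0.0151) and TFDP1 (0.0125) kept their calls and E2F7 did not (0.0566). The E2F7 call was also lost without the first siUHRF1 mock array (−0.95) or the first siUHRF1 TSA array (−0.74), since either left the difference under 2-fold. E2F2 gained a call without the first siUHRF1 mock array (−1.16) or the first siUHRF1 TSA array (−1.12), and E2F5 without the second siUHRF1 TSA array (−1.79). The TSA arrays lay above for 1 gene and below for 9, against 30.3% and 34.6% of probes. The median difference over the 10 genes was −0.99 against −0.04 over all probes.

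**Figure D2:**
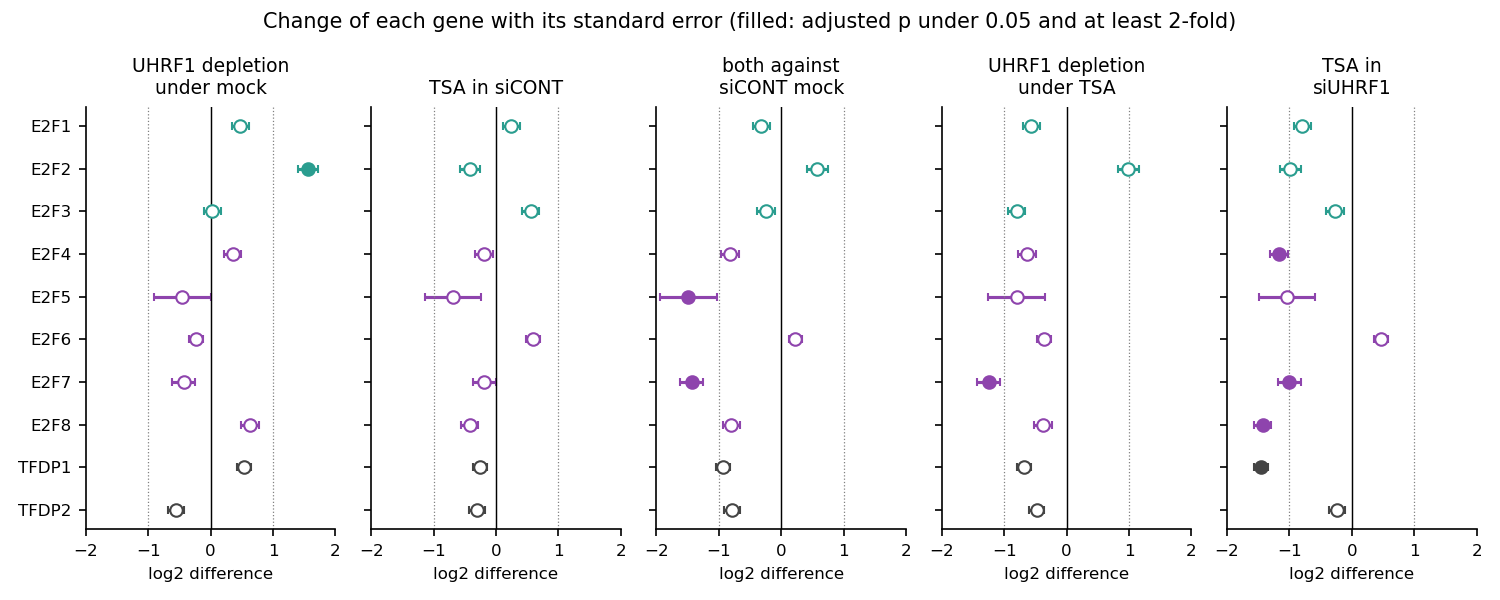
Log2 difference of each gene in the 5 pairwise comparisons with its standard error from limma, activators in green, repressors in purple and DP partners in dark grey. Filled points passed an adjusted p under 0.05 and 2-fold: E2F2 at 1.56 upon UHRF1 depletion with mock, E2F5 and E2F7 at −1.49 and −1.44 with both treatments, E2F7 at −1.25 upon depletion under TSA, and E2F4, E2F7, E2F8 and TFDP1 between −1.46 and −1.0 with TSA in depleted cells.

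The interaction, the effect of UHRF1 depletion under TSA minus that with mock, was called for 3 of 10 genes, all negative, where 4.89% of 24578 probes were called (2.07% negative). They were TFDP1 (−1.21, SE 0.16, adjusted p = 0.0215), E2F1 (−1.04, SE 0.19, adjusted p = 0.038) and E2F8 (−1.01, SE 0.20, adjusted p = 0.043). For each of the 3 genes the difference upon depletion was above 0 with mock and below 0 with TSA. The second TFDP1 probe gave −1.27 (adjusted p = 0.0368). E2F4 (−0.98, adjusted p = 0.0482, under 2-fold) and E2F3 (−0.83, adjusted p = 0.0611) lay just outside. E2F4 was called without the second siUHRF1 mock array (−1.09) or the second siUHRF1 TSA array (−1.10), and E2F7 (−0.81) without the latter (−1.07). With the siCONT arrays averaged, 0 of 24578 probes were called, and these 3 had adjusted p-values of 0.48 to 0.557, with unadjusted p-values under 0.05 (limma; 0.0204 for TFDP1, 0.0437 for E2F1 and 0.0455 for E2F8). Leaving out any 1 of the 4 siCONT arrays raised the adjusted p to 0.099 to 0.106 for TFDP1, 0.137 to 0.159 for E2F1 and 0.140 to 0.173 for E2F8. The E2F1 call was also lost without the second siUHRF1 mock array (−0.90) or the first siUHRF1 TSA array (−0.98), and that of E2F8 without the first siUHRF1 mock array (−0.90), the first siUHRF1 TSA array (−1.09, adjusted p = 0.0589) or the second (−0.93).

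Activators and repressors were then compared as groups. The median difference of the 3 activators was 0.47 upon UHRF1 depletion with mock, 0.25 with TSA in siCONT and −0.24 with both, against −0.24, −0.19 and −0.82 for the 5 repressors. The activators exceeded the repressors by 0.71, 0.44 and 0.58 in these comparisons, which share the siCONT mock arrays. Single genes did not follow this split. Upon depletion with mock the repressor E2F8 (0.63) exceeded E2F1 (0.47) and E2F3 (0.03), and E2F4 (0.35) exceeded E2F3. With TSA in siCONT the repressor E2F6 (0.60) exceeded all 3 activators. Under TSA, depletion gave −0.56 for activators and −0.63 for repressors, and TSA in depleted cells gave −0.79 and −1.04. In the 5 pairwise comparisons no activator was called lower and no repressor higher with the 75th percentile scaling and all arrays. Under median scaling E2F1 (−1.18) and E2F2 (−1.37) were called lower for TSA in depleted cells and E2F3 (−1.16) for depletion under TSA. For TSA in depleted cells E2F2 was 1.98-fold lower in the fit of all arrays, and it was called lower without the first siUHRF1 mock array (−1.16) or the first siUHRF1 TSA array (−1.12).

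Array by array, relative to the siCONT mock mean, the activators averaged 0.54 and 0.83 on the siUHRF1 mock arrays, 0.13 and 0.13 on the siCONT TSA arrays, and 0.0021 and 0.0094 on the siUHRF1 TSA arrays. The repressors averaged 0.06 and −0.12, then −0.17 and −0.18, and then −1.09 and −0.64. The mean of the activators thus lay above that of the repressors on every treated array. In the depleted groups this gap rested on E2F2 in part. In siCONT TSA it did not, as E2F2 differed from siCONT mock by −0.41 there and leaving it out widened the gap. Without E2F2, E2F1 and E2F3 averaged 0.12 and 0.38 on the siUHRF1 mock arrays, 0.43 and 0.38 on the siCONT TSA arrays, and −0.35 and −0.21 on the siUHRF1 TSA arrays. Without E2F5, the repressors averaged 0.15 and 0.0058, then −0.03 and −0.07, and then −0.80 and −0.61. With E2F2 and E2F5 both left out, the first siUHRF1 mock array had the repressors slightly above the activators.

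**Figure D3:**
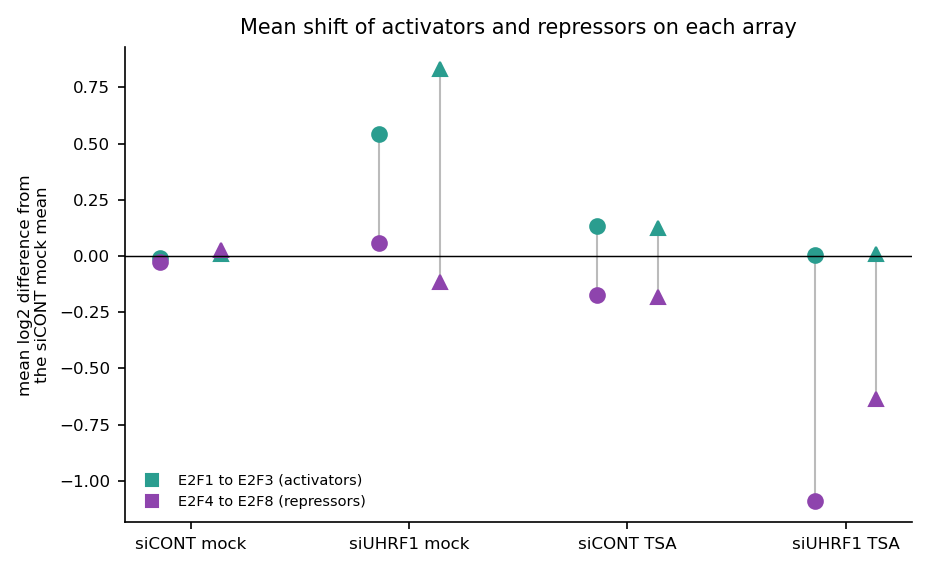
Mean log2 difference from the siCONT mock mean of E2F1 to E2F3 (green) and E2F4 to E2F8 (purple) on each array, with circles for the first and triangles for the second array of a group and grey lines joining the values of an array. The activator mean lay above the repressor mean on all 6 treated arrays, with gaps from 0.31 to 1.09, though single genes did not follow this split.

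The genes around the E2F proteins were described from lists of known function. For counts with the siCONT arrays averaged, the shares of all probes are those given above for the same comparisons. Of 34 G1/S genes whose promoters E2F proteins bind, 0 passed the test with UHRF1 depletion and mock by limma with either treatment of the siCONT arrays, and 0 at an unadjusted p under 0.05 with 2-fold. Their median difference was −0.07 against −0.10 over all probes. TSA in siCONT lowered 4 (MCM3, MCM6, MCM7 and TYMS, where 8.21% of all probes fell), 0 of them with the siCONT arrays averaged but 4 at an unadjusted p with 2-fold, and gave a median of −0.62. Both treatments against siCONT mock lowered 28 of 34, where 11% of all probes fell, with a median of −1.55, and all 34 differences were below 0. The largest were those of TYMS, the thymidylate synthase (−3.35, SE 0.16), CDC25A, a phosphatase that activates cyclin-dependent kinases (−2.57), MCM7, a subunit of the replicative helicase (−2.15), and GINS1, part of the same helicase complex (−2.1). Of the 28, 21 passed with the siCONT arrays averaged.

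In depleted cells TSA lowered 27 of the 34 (9% of all probes fell), 25 of them with the siCONT arrays averaged, with TYMS at −3.42, MCM4 at −2.1, MCM3 at −2.05 and CDC25A at −1.85. UHRF1 depletion under TSA lowered 12 (2.87% of all probes fell), led by TYMS (−1.97), RRM2, which makes deoxynucleotides (−1.88), CDC25A (−1.84) and ORC1, which marks replication origins (−1.35). None of these passed after adjustment with the siCONT arrays averaged, and 12 passed at an unadjusted p with 2-fold. The median differences were −1.37 and −0.90. With both treatments the RNA of the activators E2F1, E2F2 and E2F3 differed from siCONT mock by −0.32, 0.58 and −0.24. The repressors had a median of −0.82, and TFDP1 and TFDP2 differed by −0.93 and −0.79. A link between the RNA of the members and that of the targets was not tested.

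**Figure D4:**
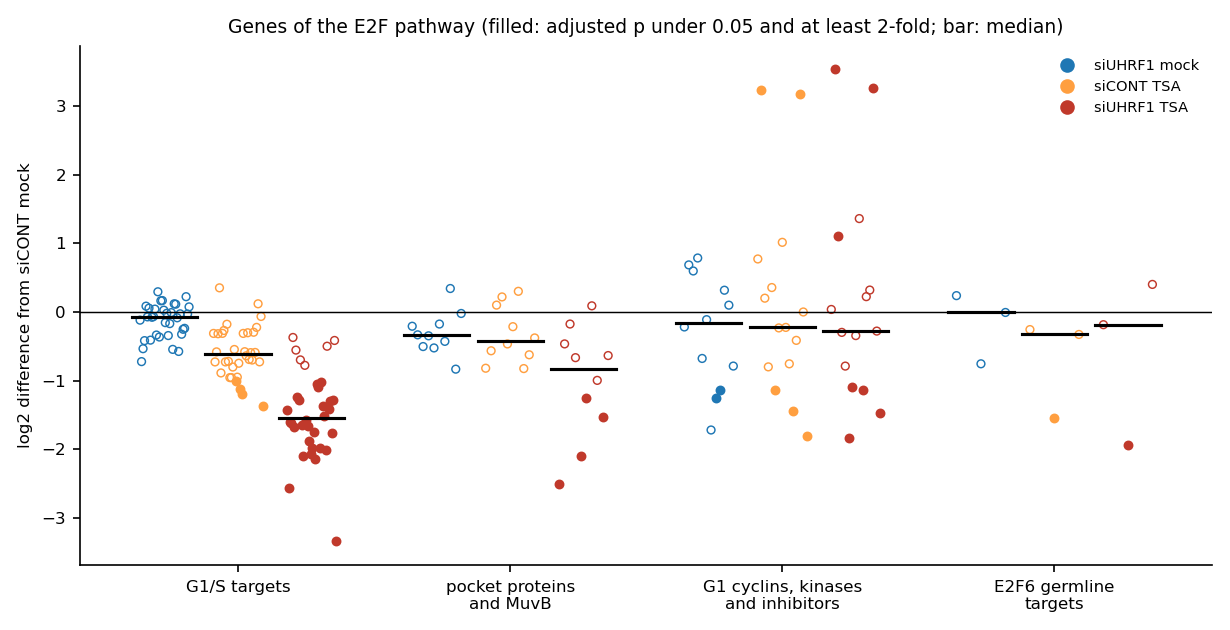
Log2 difference from siCONT mock of the genes in 4 lists of the E2F pathway for siUHRF1 mock (blue), siCONT TSA (orange) and siUHRF1 TSA (red), filled where the adjusted p was under 0.05 with at least 2-fold and with a bar at the median. The G1/S targets had medians of −0.07, −0.62 and −1.55. The 2 points above 3 in each TSA column of the third list are CCND2 and CDKN2B, which were not well above background in mock, so that their height is not a measured fold.

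Pocket proteins tie E2F proteins to repression, and MuvB proteins join them in resting cells or join MYBL2 and FOXM1 in dividing cells. Of these 10 genes, 0 passed with UHRF1 depletion and mock or with TSA in siCONT, by limma with either treatment of the siCONT arrays and also at an unadjusted p under 0.05 with 2-fold. With both treatments 4 fell (11% of all probes fell): FOXM1, a mitotic activator, by 2.52 on the log2 scale, LIN9, a MuvB subunit, by 2.1, RBL1, the pocket protein p107, by 1.53, and MYBL2, a partner of MuvB, by 1.25. The first 3 of these kept their calls with the siCONT arrays averaged. RB1 itself differed by 0.09 (adjusted p = 0.53) and RBL2 by −0.64 (adjusted p = 0.053). RBBP4, LIN54, LIN37 and LIN52 differed by −1.0, −0.67, −0.47 and −0.18. FOXM1 (−2.31), LIN9 (−1.57), RBBP4 (−1.34) and MYBL2 (−1.07) fell with TSA in depleted cells, where 9% of all probes fell. Depletion under TSA lowered 2.87% of all probes, and almost none with the siCONT arrays averaged. Under TSA, depletion lowered 3, namely FOXM1 (−1.70), LIN9 (−1.63) and MYBL2 (−1.04), and 0 with the siCONT arrays averaged, where 3 passed at an unadjusted p with 2-fold.

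Upstream, 15 cyclins, kinases and inhibitors of G1 were read. Depletion with mock lowered the inhibitors CDKN1B (−1.25, adjusted p = 0.012) and CDKN1C (−1.13, adjusted p = 0.025), 2 of the 12 tested, where 0.987% of all probes fell, and neither passed with the siCONT arrays averaged. With both treatments 4 fell and 3 rose, where 14.6% of all probes rose, and 1 in each direction passed with the siCONT arrays averaged. CDK2, a kinase that releases E2F proteins from RB1, fell by 1.84, and CDKN2D, an inhibitor of CDK4, by 1.47. Of all probes, 11% fell in this comparison. CDKN2B, a related inhibitor, and CCND2, a D-type cyclin, were not well above background in either mock group and were at least 3.76-fold and at least 3.04-fold higher with both treatments. TSA in siCONT lowered 3, including CDKN2D (−1.81) and CDKN1C (−1.44), and raised CDKN2B and CCND2, which were at least 3.53-fold and at least 2.47-fold higher, where 8.21% of all probes fell and 10.4% rose. None of these 5 calls held with the siCONT arrays averaged (adjusted p = 0.064 to 0.19), where 5 genes of the list passed at an unadjusted p with 2-fold. With TSA in depleted cells 4 rose and 2 fell, where 11.7% and 9% of all probes did. CCND2 (at least 3.5-fold) and CDKN2B (at least 4.33-fold) were higher. CDK6 rose by 1.38, from 0.98 to 2.36, against a level of 2.71 in siCONT mock. Upon depletion with mock it had differed by −1.72 (adjusted p = 0.055). CCNE2, a cyclin E of S-phase entry, fell by 1.58 with TSA in depleted cells. Of these 6 calls, that of CDK6 was lost with the siCONT arrays averaged (adjusted p = 0.105). With both treatments CDKN1C differed from siCONT mock by 0.22 (adjusted p = 0.354). The effect of depletion on CCNE2 was 0.79 with mock (adjusted p = 0.077) and −1.15 under TSA (adjusted p = 0.022), and that on CDKN1C was −1.13 and 1.67 (adjusted p = 0.0058). Neither call under TSA held with the siCONT arrays averaged (adjusted p = 0.276 and 0.128).

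The E2F6 list held germline genes that E2F6 is known to keep silent. Of its 6 genes, 5 had a probe under their own name and 3 were tested. SMC1B was well above background on no array and SLC25A31 on 1. The 3 tested genes were well above background on all arrays, with siCONT mock levels of 2.30 (STAG3), 0.79 (TUBA3D) and 0.22 (TUBA3C). Their signal was thus not silent before treatment. STAG3, a meiotic cohesin, differed by −0.26 with TSA in siCONT and −0.19 with both treatments (adjusted p = 0.2 and 0.32). TUBA3C, a testis tubulin, fell by 1.54 with TSA in siCONT and by 1.95 with both treatments, and the latter passed with the siCONT arrays averaged. Its close copy TUBA3D, whose probe also matches TUBA3E, differed by −0.33 and 0.40 (adjusted p = 0.28 and 0.19). The copies are nearly identical in sequence, so which of them each probe read is uncertain.

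The genes whose levels ran most like E2F2 over the 8 arrays were SGTA (r = 0.996), PCP4, BIVM, SCG5 and SUOX (r = 0.979), and 143 of 12375 genes reached r of at least 0.9. All 5 were highest in siUHRF1 mock. Those most like E2F5 were SNTB2 (r = 0.980), PGAM1, ZNF275, ZNF805 and NT5DC1 (r = 0.975), among 147 genes with r of at least 0.9, and all 5 were highest in siCONT mock. E2F5 had the widest range among the repressors in part through the first siUHRF1 TSA array (−1.07, against 0.44 on the second). Its r values also include that array. The genes were picked by r over these same arrays, so that sharing the highest group with E2F2 or E2F5 follows from the choice.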

How the data were processed

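RNA of DLD1 cells was hybridized to 8 Agilent 1-colour arrays, and neither labels nor methods say whether the siCONT arrays of a group came from separate cultures. The authors' Feature Extraction 10.7.3.1 wrote, per the file headers, a background-subtracted linear intensity for every spot, which is not scaled between arrays. Coordinates of probes are hg19, per the file headers. Outlier spots were left out, spots of a probe were averaged, and 20 probes with no usable spot on an array were dropped. The log2 intensity minus the 75th percentile of the array was fitted with limma 3.58.1 (R 4.3.3) over 8 arrays and 4 group means (4 residual degrees of freedom, prior 2.17), two-sided. Testing required both arrays of at least 1 compared group to be well above background. Of a gene's probes, the brightest was used. The second fit averaged the siCONT arrays of an agent (2 residual degrees of freedom, which come from the siUHRF1 pairs alone). Alternatives were other background corrections, scalings and filters, leaving out each array, the replicate number as a block, and the methods' own test.

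Groups and replicate numbers came from the sample titles. The members, lists and tests were chosen with earlier results of these data known, so that no list is independent evidence. Text names all members and all pocket, MuvB and E2F6 target genes, up to 4 called genes of each other list by size of change, and the 5 genes most alike to the widest-ranging activator and repressor. The fit was tested on simulated data in which each probe had the same spread on all arrays. That test therefore does not cover the unequal spread of the siCONT and siUHRF1 pairs. With 2 arrays a group, their number limits the precision.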

Additional observations from a re-analysis of the deposited data

Results flagged for a closer look

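Groups of 2 arrays are too small to single out an array by its distance from the others. The results that stood out were those in which the effect of UHRF1 depletion differed between mock and TSA by the interaction term (adjusted p under 0.05 and at least 2-fold, limma, 8 arrays). Of 24578 probes, 4.89% were called in this way (2.82% positive and 2.07% negative). Among the 10 members the results were E2F1 (−1.04), E2F8 (−1.01) and TFDP1 (−1.21). Among the genes of the pathway lists they were TYMS (−2.04), CCNE2 (−1.93), RRM2 (−1.64), FOXM1 (−1.49), MCM2 (−1.28), LIN9 (−1.11), MCM3 (−1.04) and, with the opposite sign, CDKN1C (2.80). By list, 4 of 34 G1/S genes and 2 of 10 pocket and MuvB genes were called, all negative. Of the 15 G1 cyclins, kinases and inhibitors, 1 was negative and 1 positive, and no E2F6 target was called. All these differences are log2 values. None of them passed with the siCONT arrays averaged to 1 sample, where 0 of 24578 probes were called.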

How the results depend on the processing

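Of 60 results of a member in a comparison, 11 were called, 7 of these were lost with the siCONT arrays averaged, and 2 (E2F7 with both treatments and TFDP1 with TSA in depleted cells) kept their call under every alternative run except the methods' t-test with adjustment, which called 0 members. No called result changed sign. Uncalled ones did: with 1 array left out, E2F3 upon depletion with mock ranged from −0.10 to 0.15, the E2F5 interaction from −1.11 to 0.41 and the TFDP2 interaction from −0.019 to 0.17, and median scaling gave −0.17 for E2F6 with both treatments and −0.27 for the TFDP2 interaction. Median scaling moved the median of all probes to −0.54 with both treatments, −0.43 for TSA in depleted cells and −0.35 for depletion under TSA, and the members called to 6, 7 and 3. For both treatments, 1 member was called with quantile normalization, with scaling to the 75th percentile of detected probes, without a filter on dim probes, with the siCONT arrays averaged or by the methods' t-test unadjusted. For depletion under TSA, 2 were called with quantile normalization or the percentile over detected probes and 0 with the siCONT arrays averaged. Normexp background correction left 1 call each for TSA in depleted cells and the interaction, and leaving out the filter left 0 for the interaction. With the siCONT arrays averaged, 0 were called for depletion with mock and for the interaction. That t-test was run on the 5 pairwise comparisons. Leaving out 1 array gave 0 to 1 members for depletion with mock, 0 for TSA in siCONT, 1 to 2 for both treatments, 0 to 3 for depletion under TSA, 4 to 5 for TSA in depleted cells and 0 to 4 for the interaction.

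The activator minus repressor median lay between 0.56 and 0.87 for depletion with mock, 0.44 and 0.47 for TSA in siCONT, 0.54 and 0.64 for both treatments, −0.05 and 0.13 for depletion under TSA, 0.0015 and 0.54 for TSA in depleted cells, and −0.19 and 0.16 for the interaction when 1 array was left out. It was 0.37 for TSA in siCONT with normexp, and for both treatments 0.45 with normexp, 0.80 with quantile normalization and 0.66 with the mean of the gene's probes. The causes were not tested.

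Replicate numbers did not pair the groups, as the deviations of same-numbered arrays correlated at −0.06 to 0.07, apart from 0.34 between the siUHRF1 groups, which share their siRNAs. With the replicate number as a block, 1 member in place of 3 was called for the interaction, and no other call changed.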
